A study of Mus musculus with 12 samples.

Results

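Solute carriers are the largest family of membrane transport proteins, and their gene symbols begin with Slc. They were examined here in fetal mouse kidneys kept in culture, either wild type or with active beta-catenin, the transcriptional coactivator of the canonical Wnt pathway. A gene was a member when its symbol had the form Slc, a number, the letter a and a number, when it was not Slc2a1, Slc2a3 or Slc4a1, and when its mean signal over the 12 arrays, as log2(intensity + 16) of the deposited values, was above 5.5. Each gene was represented by its brightest probe set, a group of short probes against the 3' part of a transcript. The rule gave 134 members of 238 solute carrier genes on the array, among 12393 genes tested. A further 101 carriers were at or under the level, and 3 were left out by name.

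Members were thus chosen by their mean signal, which is only described. It ran from 5.51 to 12.49 over the members. The 27 probe sets for bacterial control transcripts, which have no target in mouse RNA, read at most 5.45 after quantile normalisation (described below). Slc30a1, a zinc exporter (5.51), and Slc15a3 (5.54) were just inside the threshold, and Slc14a2, a urea transporter (5.46), and Slc46a3 (5.43) were just outside. Because the mean was taken over all arrays, a member could pass through 1 set of arrays alone. The runs are described below, and group means are of the normalised values. In 7 members the mean of the lower run, and in 1 member that of the higher run, was at or under 5.5. By genotype this held for 2 members in wildtype and 3 in activated arrays. Within the lower run it held for 5 members in wildtype and 10 in activated arrays, and within the higher run for 3 in each.

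Most carriers move a solute down its own gradient or couple it to that of sodium, protons or another solute. In the kidney they do the bulk of reabsorption: proximal tubule cells take back glucose, amino acids, phosphate and organic ions, and the thick ascending limb and distal segments take back salt. A fetal kidney at the stage cultured here consists mainly of a branching ureteric bud, nephron progenitors that condense around its tips, and stroma, so tubular carriers are only beginning to be made. Other carriers are needed in every growing cell: those of the inner mitochondrial membrane, the amino acid exchangers, the nucleotide sugar carriers of the Golgi, and importers of zinc, iron and copper.

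The 12 samples came from the C57BL/6 strain, 6 labelled wild type and 6 labelled beta-catenin activated; the source of the activated samples is described as kidney with tumors. Pregnant mice were given tamoxifen, a drug commonly used to switch on an inducible Cre recombinase, at a dose of 2 mg for each 40 g of their weight, injected into the peritoneum at 10.5 days post coitum. This treatment is given for both genotypes. The allele and the promoter that drove recombination are not given in the sources used here. Kidneys were taken at 10.5 days post coitum. Culture on porous membranes lasted 3 to 4 days, in equal parts of F12 and DMEM with transferrin (5 µg/mL), insulin (5 µg/mL) and selenium (5 ng/mL). The labels do not say that samples came from separate animals or cultures, so p-values measure only the spread between these samples, which may be technical.

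The sample titles are numbered in 2 separate runs of numbers. Wildtype 1 to 3 and activated 1 to 3 belong to the lower run, and wildtype 4 to 6 and activated 4 to 6 to the higher run. The labels give no meaning to these numbers, so each comparison of genotypes was made over all 12 arrays and within each run. Every array had the same trimmed mean intensity, about 250.1. Activated 2 stood apart in the log2 ratio of 5' to 3' Gapdh signal, at 0.08 against -2.63 to -1.05 in the other 11 arrays. Lists of fetal kidney markers had means of 6.43 to 8.34 over the samples for 8 genes of nephron progenitors and 9.69 to 10.14 for 8 of stroma. Their mean was 7.10 to 7.73 for 8 genes of the ureteric bud. Mean signal was above 5.5 in 5 of the 8 ureteric bud genes and in all 8 of each other list. The level of Ctnnb1 RNA does not check the labels, since beta-catenin is activated as a protein. In bulk samples, fewer cells of a type and less RNA per cell cannot be told apart.

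By substrate, 31 of the 33 carriers of the mainly mitochondrial Slc25 family on the array were members, as were 17 of 33 amino acid carriers, 16 of 34 carriers of inorganic ions and 16 of 18 zinc carriers. All 6 carriers of nucleotide sugars and acetyl-CoA and 8 of 9 for other metals and heme were members. In contrast, 6 of 22 carriers of organic ions and drugs and 3 of 12 carriers of neurotransmitters and osmolytes passed the level. Probe sets differ in brightness, so these shares describe which genes were examined and do not rank expression.

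Of the 134 members 1 passed a test of genotype, in the lower run alone (0.746%, where 0.597% of all genes passed). This was Slc12a2, which encodes NKCC1, the cotransporter that brings sodium, potassium and chloride into cells and helps to set their volume. In the lower run it read 10.44, 10.43 and 10.53 in the wildtype arrays and 9.48, 9.39 and 9.71 in the activated arrays (log2 signal). All 3 activated arrays were thus low, with a gap of over 0.7 to the wildtype arrays. Wildtype arrays of the higher run read 10.52, 10.29 and 10.48 and activated arrays 10.44, 10.18 and 10.22, and these overlapped.

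Slc12a2 fell by 0.94 on the log2 scale in the lower run (SE 0.13, limma adjusted p = 0.0109, n = 3 arrays per genotype), to 0.522 times the wildtype signal. The difference was -0.15 in the higher run (SE 0.11, adjusted p = 0.881), and the test of the difference between runs gave 0.79 (SE 0.16, adjusted p = 0.0609). Over all 12 arrays its mean was 10.45 ± 0.09 in wildtype and 9.90 ± 0.43 in activated kidneys (SD, n = 6), a difference of -0.54 (adjusted p = 0.446). The other probe sets of Slc12a2 gave -0.83 and -0.90 in the lower run. The call in the lower run was lost without wildtype 1 (adjusted p = 0.0681), wildtype 2 (0.0599), wildtype 3 (0.0979) or activated 1 (0.0876), and was kept without activated 2 (0.0145) or activated 3 (0.0231). It was also lost with arrays centred on their medians (0.0557), with a gene's probe sets averaged (0.111) and without the variance trend (0.110); over these settings and single arrays the difference itself ran from -1.03 to -0.87.

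Markers of nephron progenitors, stroma and neurons were, like Slc12a2, lower in the activated arrays of the lower run. The mean of 8 nephron progenitor markers was 8.08 to 8.34 in wildtype and 6.43 to 6.96 in activated arrays of the lower run. In the higher run it was 7.94 to 8.11 against 7.60 to 7.78. In the lower run 4 of the 8 fell, among them Six2, which keeps these cells undifferentiated, by 2.01. Of all genes 0.266% fell in that run. Of 8 ureteric bud markers 1, Calb1, fell there, by 1.02, as did 2 of 8 stromal and 2 of 6 neuronal markers. The stromal mean there was 9.97 to 10.14 in wildtype and 9.69 to 9.83 in activated arrays, and the neuronal mean 6.51 to 6.88 against 5.75 to 5.90. In the higher run the stromal mean was 9.72 to 9.90 against 10.01 to 10.11, and the neuronal mean, 6.03 to 6.26 against 6.06 to 6.37, overlapped. The part of these cell types in the values of Slc12a2 was not tested.

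Slc12a2 was the only member that passed in any of the 5 tests that involve genotype. Over all 12 arrays 0 of 134 members passed limma's test, where 0.0242% of all genes did, and the smallest adjusted p was that of Slc12a2. At an unadjusted p under 0.05 there were 9 members (6.72%, against 6.15% of all genes). With the run as a term 0 members passed (0.105% of all genes), with 14 at an unadjusted p under 0.05 (10.4%, against 8.79%). In the lower run 1 member passed, downward (0.597% of all genes, 0.266% downward), and in the higher run 0 passed (0.00807% of all genes), with 9 and 8 at an unadjusted p under 0.05 (7.08% and 6.36% of all genes). For the difference between the runs 0 passed (0.331% of all genes) and 12 had an unadjusted p under 0.05 (8.96%, against 6.1% of all genes). The shares of members were near those of all genes, apart from this last share, which was higher. That excess was not tested.

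The median difference over the members was -0.03 on the log2 scale over 12 arrays (-0.01 over all genes), -0.08 within the lower run (-0.03) and -0.01 within the higher run (-0.00). Groups did not overlap in 22 members in the lower run, 6 with activated above (4.48%) and 16 below (11.9%). Of all genes 12.5% did not overlap there, 5.41% above and 7.11% below. The larger share of members below was not tested. The higher run had 15 such members, 6 above (4.48%) and 9 below (6.72%), against 11.3% of all genes, 5.6% above and 5.74% below. Over all 12 arrays the groups did not overlap in 1 member, with activated below, against 0.5% of all genes (0.21% below). That member was Slc25a44, a mitochondrial carrier, at 6.67 to 6.79 in wildtype and 6.39 to 6.65 in activated kidneys, with a difference of -0.21 (SE 0.13, adjusted p = 0.885).

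**Figure D1:**
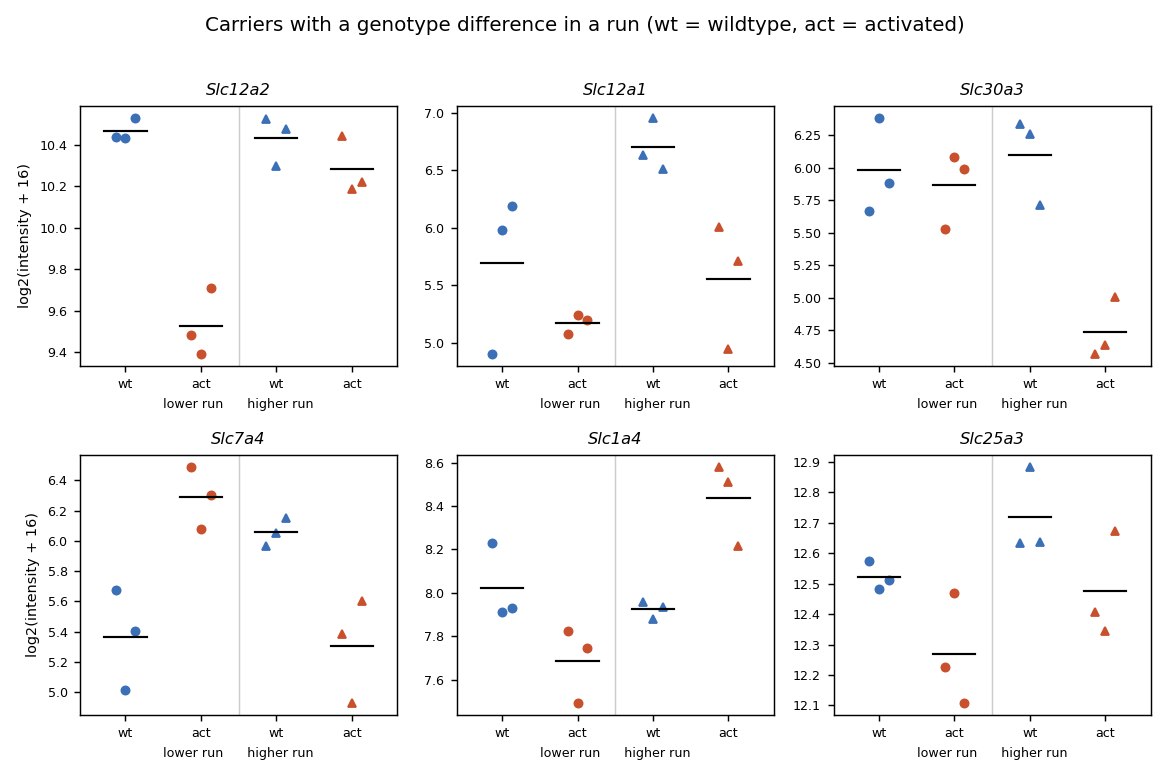
Log2 signal of 6 carriers in each array, by genotype (wt, wildtype; act, activated) within the lower run (circles) and the higher run (triangles); bars are the means of 3 arrays, and each panel has its own axis that does not start at 0. Slc12a2 lies at 9.39 to 9.71 in the activated arrays of the lower run and at 10.18 or above in all other arrays; the other 5 carriers did not pass the test.

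Among the other carriers of sodium, potassium and chloride, none passed. Slc12a1 encodes NKCC2, the salt carrier of the thick ascending limb. It read 4.90, 5.98 and 6.18 in wildtype and 5.07, 5.24 and 5.20 in activated arrays of the lower run. Its values in the higher run were 6.63, 6.96 and 6.51 in wildtype and 6.01, 4.95 and 5.71 in activated arrays. Every activated array of the higher run was below every wildtype array, while the groups of the lower run overlapped. The difference was -1.14 in the higher run (SE 0.29, adjusted p = 0.531), -0.52 in the lower run (SE 0.35, adjusted p = 0.874) and -0.83 over all arrays (SE 0.30, adjusted p = 0.663). Several of these values are near the bacterial control signal of 5.45, and a dimmer probe set of Slc12a1 gave -0.29 in the higher run.

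Slc12a5, which encodes the potassium chloride cotransporter of neurons, read 6.38, 6.21 and 6.25 in wildtype and 7.01, 6.49 and 6.90 in activated arrays of the higher run. These groups did not overlap, and the difference was 0.52 (SE 0.20, adjusted p = 0.775). In the lower run all 6 arrays lay between 6.88 and 7.09, with a difference of -0.08. Slc24a3, which exchanges sodium for calcium and potassium, differed by -0.37 over 12 arrays (SE 0.17, adjusted p = 0.804), and Slc8a1, a sodium calcium exchanger, by -0.29 (SE 0.16, adjusted p = 0.870). Over the 16 inorganic ion carriers 14 differences were negative over all arrays, with a median of -0.12; 12 were negative in the lower run (median -0.23) and 10 in the higher run (median -0.12). With 1 carrier of the 16 called in 1 of these tests, nothing is read from the signs.

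Mitochondrial carriers were the largest class, and 0 of 31 passed limma's test in any of the 6 comparisons. Of all genes 0.00807% to 0.597% passed in the tests that involve genotype and 11.1% in that of the run, where 2 of the 31 were higher and 1 lower at an unadjusted p under 0.05. In the test of the run Slc25a39 passed without wildtype 1, and Slc25a3 without activated 2. Slc25a3 carries phosphate into the mitochondrial matrix for the synthesis of ATP. It read 12.57, 12.48 and 12.51 in wildtype and 12.23, 12.47 and 12.11 in activated arrays of the lower run. The values of the higher run were 12.63, 12.88 and 12.64 in wildtype and 12.41, 12.34 and 12.67 in activated arrays. Its difference was alike in the runs, at -0.25 (SE 0.10) and -0.24 (SE 0.10), and -0.25 over all arrays (SE 0.09, adjusted p = 0.668), with an overlap in the higher run. Slc25a4 and Slc25a5, the main exchangers of ADP and ATP across the inner membrane, differed by -0.03 and -0.00 over all arrays.

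Slc25a24, a carrier of ATP-magnesium and phosphate, read 5.69, 5.45 and 5.62 in wildtype and 6.27, 6.29 and 6.06 in activated arrays of the lower run, with no overlap. Those of the higher run, 5.70, 6.27 and 5.83 against 5.88, 6.43 and 6.66, overlapped. The difference over all arrays was 0.50 (SE 0.18, adjusted p = 0.659). Slc25a28, a mitochondrial iron importer, differed by -0.37 (SE 0.15, adjusted p = 0.735), and Slc25a39, a mitochondrial glutathione carrier, by -0.17 (SE 0.08, adjusted p = 0.810). Over the class the median difference was -0.02 over all arrays, with 11 differences positive and 20 negative.

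**Figure D2:**
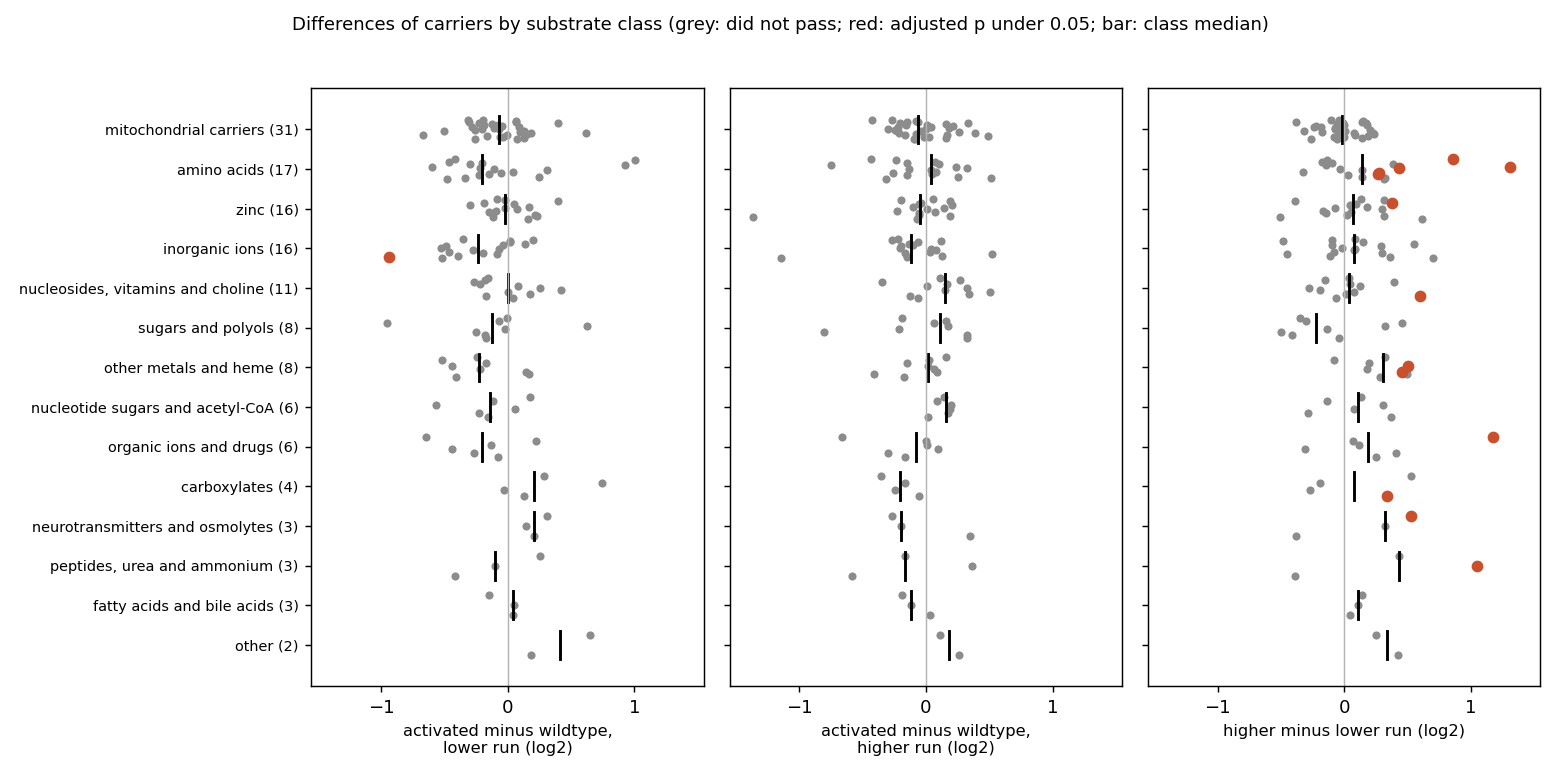
Log2 differences of the 134 carriers by substrate class (number of carriers in brackets) for activated minus wildtype in the lower run, the same in the higher run, and higher minus lower run; points are genes, bars are class medians, and red points have an adjusted p under 0.05. There is 1 red point in the left panel, Slc12a2, none in the middle panel, and 13 in the right panel, all above 0, with 5 of them among the 17 amino acid carriers, where the points of Slc38a2 and Slc38a10 overlap.

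No zinc or sugar carrier passed a test of genotype. Slc30a3 encodes a transporter that loads zinc into vesicles. Its values in the higher run were 6.33, 6.26 and 5.71 in wildtype and 4.57, 4.64 and 5.00 in activated arrays, so the activated arrays lay under the bacterial control signal of 5.45. Those of the lower run were 5.67, 6.39 and 5.89 against 5.53, 6.08 and 5.99, with an overlap. The difference was -1.36 in the higher run (SE 0.25, adjusted p = 0.275), the smallest adjusted p of any member there, and -0.11 in the lower run. The test of the difference between runs gave -1.25 (SE 0.39, adjusted p = 0.353).

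Slc45a3, a member of a family of sugar carriers, read 6.48, 5.89 and 6.02 in wildtype and 5.29, 5.55 and 4.68 in activated arrays of the lower run. These did not overlap, and the difference was -0.96 (SE 0.32, adjusted p = 0.418); its other probe set gave -0.88. The higher run gave 0.07. Slc37a4, which moves glucose 6-phosphate into the endoplasmic reticulum, read 6.49, 6.05 and 5.74 in wildtype and 6.73, 6.91 and 6.53 in activated arrays of the lower run, a difference of 0.63 (SE 0.28, adjusted p = 0.712). The 3 carriers that the rule left out did not pass either. The glucose importer Slc2a1 differed by 0.40 in the lower run (adjusted p = 0.518), and Slc2a3, another glucose importer, by 1.64 (adjusted p = 0.123).

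For lactate, Slc16a3, the exporter of glycolytic cells, read 6.03, 4.97 and 5.12 in wildtype and 6.06, 6.36 and 5.94 in activated arrays of the lower run. The groups overlapped through wildtype 1, and the difference was 0.75 (SE 0.34, adjusted p = 0.706), against -0.16 in the higher run. Slc66a2 was at 6.28, 6.70 and 6.67 in wildtype and 7.20, 6.90 and 7.50 in activated arrays of the lower run. This difference, 0.65 (SE 0.26, adjusted p = 0.594), came without overlap, and its other probe sets gave 0.46 and -0.17. Slc15a2, a peptide transporter, differed by -0.50 over all arrays (SE 0.29, adjusted p = 0.873), and Slc22a12, the urate carrier of the proximal tubule, by -0.28 (SE 0.20, adjusted p = 0.909).

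Amino acid carriers included 3 genes whose difference with genotype had opposite signs in the runs with no overlap in either. No other member did so, which makes 2.24% of the 134, and 0.581% of all genes did; none of the 3 passed the test of the difference between runs. Slc7a3 encodes a carrier of the cationic amino acids arginine and lysine. It read 6.45, 6.38 and 6.70 in wildtype and 5.68, 6.04 and 6.02 in activated arrays of the lower run, and 7.42, 7.41 and 7.37 against 7.87, 7.52 and 7.52 in the higher run. Activated arrays were thus low in the lower run and high in the higher run, by -0.60 (SE 0.26) and 0.24 (SE 0.16), and the difference between the runs did not pass at 0.83 (SE 0.28, adjusted p = 0.438).

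Slc1a4 encodes ASCT1, an exchanger of serine, alanine and other neutral amino acids. It read 8.23, 7.91 and 7.93 in wildtype and 7.82, 7.49 and 7.74 in activated arrays of the lower run, and 7.96, 7.88 and 7.94 against 8.58, 8.51 and 8.22 in the higher run. The differences were -0.34 (SE 0.20) and 0.51 (SE 0.14), and 0.85 between the runs (SE 0.23, adjusted p = 0.198). Its dimmer probe sets did not follow this pattern, with 0.24 and -0.18 in the lower run and 0.26 and -0.14 in the higher run.

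Slc7a4, a relative of the cationic amino acid carriers, read 5.67, 5.01 and 5.40 in wildtype and 6.49, 6.08 and 6.31 in activated arrays of the lower run. Wildtype arrays of the higher run read 5.97, 6.05 and 6.15 and activated arrays 5.38, 4.93 and 5.60. The differences were 0.93 (SE 0.29) and -0.75 (SE 0.24), and -1.68 between the runs (SE 0.36, adjusted p = 0.0748). The values 5.01 and 5.40 (wildtype, lower run) and 5.38 and 4.93 (activated, higher run) lay under the bacterial control signal of 5.45. The sizes of these differences are thus uncertain. The other probe sets of Slc7a4, both dimmer than that signal, gave -0.31 and -0.15 in the lower run and -0.49 and 0.19 in the higher run. So this pattern was seen with 1 of 3 probe sets.

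Slc7a8 encodes a carrier of neutral amino acids that pairs with the heavy chain Slc3a2. It read 6.52, 6.13 and 5.10 in wildtype and 7.12, 6.53 and 7.11 in activated arrays of the lower run. The groups did not overlap, but wildtype 3 lay over 1 log2 unit under the other wildtype arrays of its run. The difference was 1.00 (SE 0.38, adjusted p = 0.545) and, in the higher run, -0.24 (SE 0.21). Slc3a2 itself differed by 0.31 within the lower and 0.04 within the higher run, with neither past the test.

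**Figure D3:**
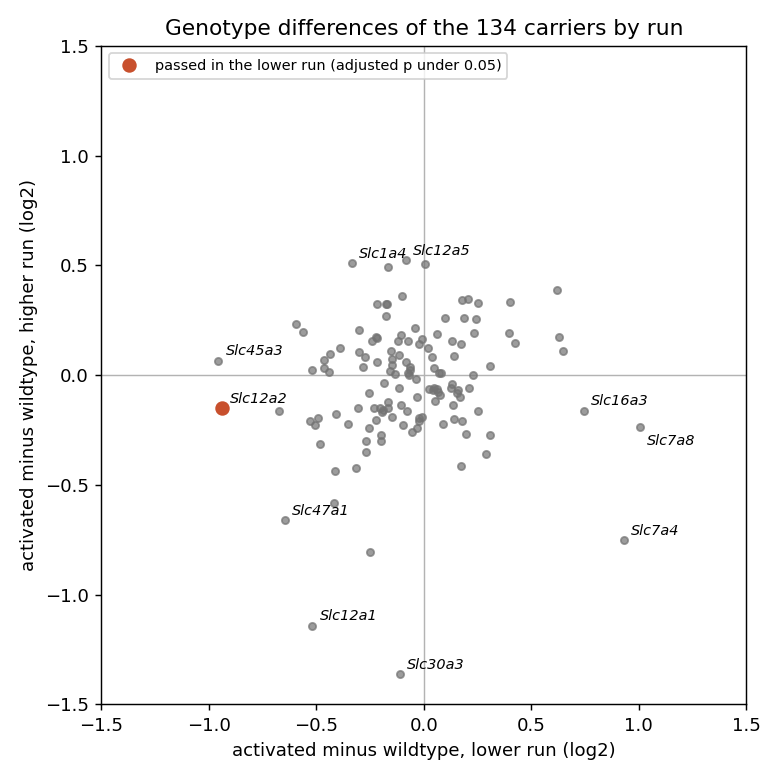
Activated minus wildtype difference of each of the 134 carriers (log2), in the lower run on the horizontal axis and in the higher run on the vertical axis; the red point passed in the lower run. The points spread around 0 without a common slope, with Slc12a2 at -0.94 and -0.15, Slc30a3 at -0.11 and -1.36, and Slc7a4 at 0.93 and -0.75.

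The runs use separate wildtype arrays, so their differences can be set side by side. Over the 134 members, which are genes measured on the same arrays and not independent replicates, Pearson's r between the lower and higher run differences was 0.117, and 67 members had the same sign.

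The run moved more carriers than the genotype did. With genotype as a term, 13 members were higher in the higher run and 0 were lower, or 9.70% of members, where 11.1% of all genes passed, 6.94% higher and 4.2% lower. At an unadjusted p under 0.05 there were 38 members, 30 higher and 8 lower (24% of all genes, 12.8% higher and 11.2% lower). The median difference was 0.08 over members and -0.02 over all genes. So the share of members called was near the background, and all 13 went upward where all genes went both ways, which was not tested. With the dimmest 40% of genes left out of the fit, 10 of 101 members rose and 2 fell, or 11.9%, where 18.5% of all genes passed (11% higher and 7.45% lower). In that fit the share of members was thus under that of all genes. Arrays of the runs did not overlap in 9 members (6.72%), all with the higher run above (4.24% of all genes had the higher run above). Of the 101 carriers at or under the level, 4 rose: Slc17a1, Slc2a2, Slc34a1 and Slc5a1. Slc15a3 and Slc47a1, among the 13, had a lower-run mean under 5.5 and were members through their signal in the higher run. They had to differ and lend nothing to these counts, and Slc15a3 is also among the 9 without overlap. The mean was at or under 5.5 in the lower run in 7 members and in the higher run in 1. The level rule could thus add members that were higher in the higher run.

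The first principal component of the 134 members held 26.7% of their variance. The arrays of the lower run scored from -3.06 to -0.91 on it, and those of the higher run from 1.01 to 2.67.

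Carriers of amino acids made up 5 of the 13, or 5 of 17 amino acid carriers, where 6.94% of all genes rose. Slc7a3 rose most, from 6.21 ± 0.37 in the lower to 7.52 ± 0.18 in the higher run (SD, n = 6 arrays), by 1.31 (SE 0.17, limma adjusted p = 0.000134), or 2.48-fold. Its 6 arrays of the higher run, at 7.37 to 7.87, all lay above the 6 of the lower run, at 5.68 to 6.70. It alone was called under each of the 20 alternative settings, arrays of either genotype alone included, with 0.89 in wildtype arrays (adjusted p = 0.0257) and 1.72 in activated arrays (adjusted p = 0.00564).

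Slc7a9 encodes the light chain of the cystine and dibasic amino acid exchanger of the proximal tubule, whose loss causes cystinuria. In the lower run it read 5.54, 5.74 and 5.86 in wildtype and 5.08, 5.44 and 5.37 in activated arrays. The higher run gave 6.40, 6.59 and 6.76 in wildtype and 6.24, 6.09 and 6.10 in activated arrays. The higher run lay above the lower run in all arrays, by 0.86 (SE 0.15, adjusted p = 0.00137). Within each run the activated arrays lay under the wildtype arrays, by -0.41 and -0.44, with neither past the test. All activated arrays of the lower run were under the bacterial control signal of 5.45, so the size of the rise is uncertain.

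Slc38a2 encodes SNAT2, the sodium-coupled carrier of neutral amino acids that cells make more of when amino acids run short. It read 11.37, 11.19 and 11.17 in wildtype and 11.12, 11.19 and 11.26 in activated arrays of the lower run. The higher run gave 11.63, 11.65 and 11.59 in wildtype and 11.61, 11.30 and 11.19 in activated arrays, so activated 5 and activated 6 lay among the arrays of the lower run. The rise was 0.28 (SE 0.08, adjusted p = 0.0285). Slc6a9, a glycine importer, rose by 0.43 (SE 0.13, adjusted p = 0.0477) from 7.18 to 7.46 in the lower run to 7.53 to 8.11 in the higher run. Its dimmer probe set gave 0.02. Slc38a10 rose by 0.27 (SE 0.08, adjusted p = 0.0367). A dimmer probe set of Slc38a10 gave -0.48, and its others gave 0.06 to 0.39. These calls were less stable than that of Slc7a3: Slc38a2 was called under 9, Slc38a10 under 7 and Slc6a9 under 6 of the 20 alternative settings.

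Carriers driven by Atf4, the transcription factor of the amino acid stress response, were listed with other genes of that response. Of 10 such carriers 3 rose with the run, namely Slc7a3, Slc38a2 and Slc6a9, and 8 had a positive difference (6.94% of all genes rose). The others did not pass. Among them Slc7a5, a large neutral amino acid exchanger, differed by 0.38 (adjusted p = 0.100) and Slc1a4 by 0.32 (adjusted p = 0.219). Slc1a5, a glutamine carrier, differed by 0.14 and Slc38a1 by 0.03. The list also held 2 negative differences, the lowest at -0.40. Of 17 further genes of the response 7 rose, with a median difference of 0.41 over the list. They included Atf4 itself (0.39, adjusted p = 0.0114), Asns, which makes asparagine (1.31), and Nupr1, a stress-induced chromatin protein (2.80). The list mean was 7.84 to 8.27 in the arrays of the lower run and 8.53 to 8.76 in those of the higher run. Its part in the rise of these carriers was not tested.

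**Figure D4:**
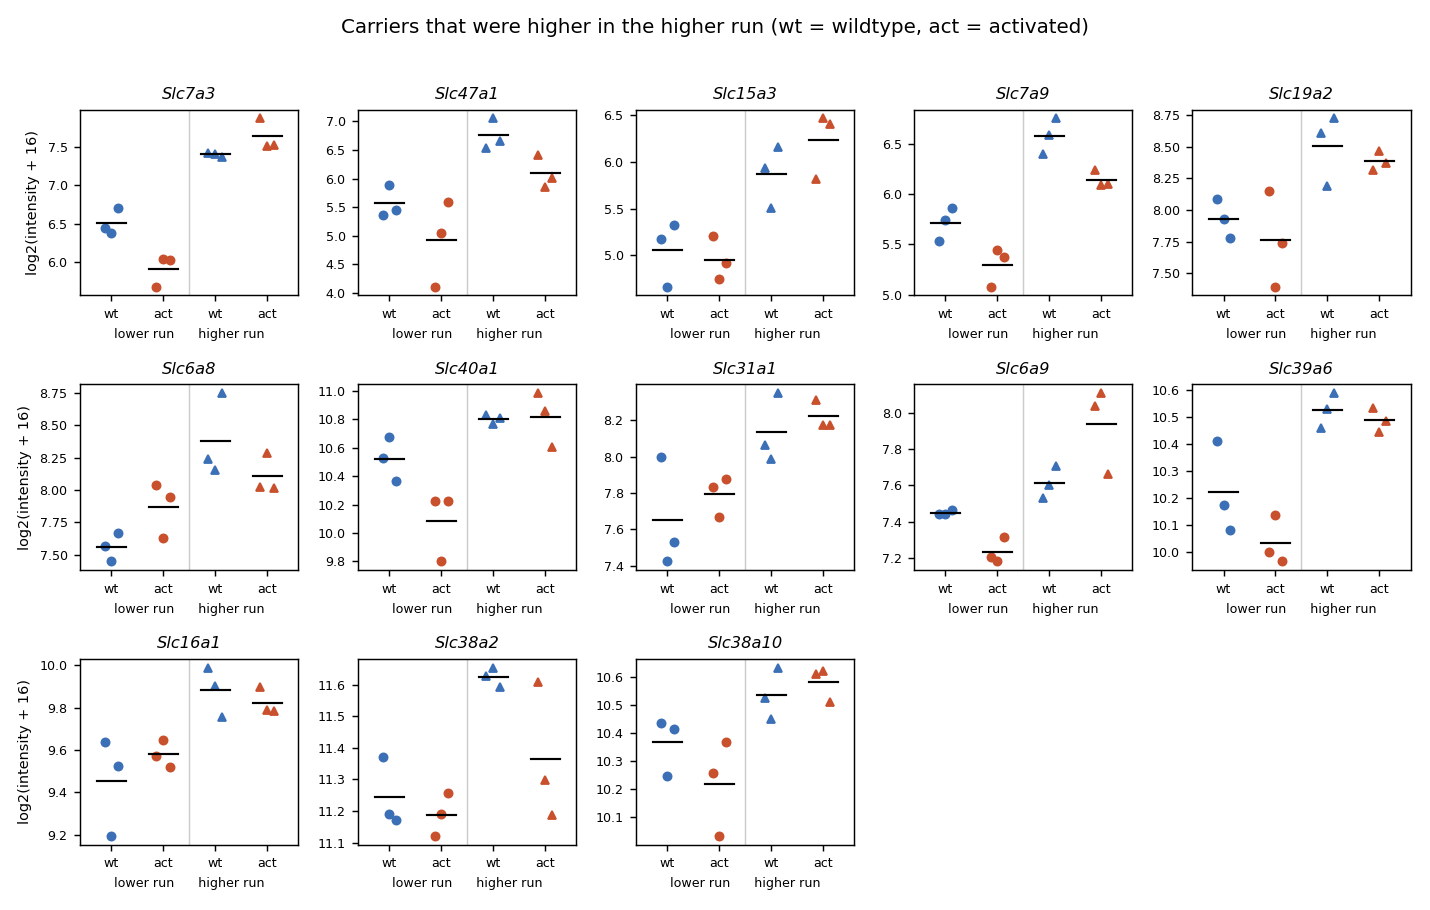
Log2 signal in each array of the 13 carriers that were higher in the higher run, by genotype (wt, wildtype; act, activated) within the lower run (circles) and the higher run (triangles); bars are the means of 3 arrays, and each panel has its own axis that does not start at 0. In Slc7a3 the higher run lies at 7.37 to 7.87 and the lower run at 5.68 to 6.70, while in Slc38a2 2 activated arrays of the higher run lie among those of the lower run.

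Iron, copper and zinc carriers followed. Slc40a1 encodes ferroportin, the iron exporter, which is abundant in macrophages that recycle iron. It read 10.53, 10.68 and 10.37 in wildtype and 10.23, 9.80 and 10.23 in activated arrays of the lower run. Values in the higher run were 10.83, 10.77 and 10.81 in wildtype and 10.99, 10.86 and 10.61 in activated arrays. The rise was 0.51 (SE 0.11, adjusted p = 0.00648); its other probe set gave 0.59, and activated 6 lay under wildtype 2. Within genotypes the rise was 0.28 in wildtype arrays (adjusted p = 0.149) and 0.73 in activated arrays (adjusted p = 0.0400).

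Slc31a1, the copper importer CTR1, rose from 7.72 ± 0.22 to 8.18 ± 0.14, by 0.46 (SE 0.12, adjusted p = 0.0240), and its other probe set gave 0.31. Slc39a6, a zinc importer, rose from 10.13 ± 0.16 to 10.51 ± 0.05, by 0.38 (SE 0.07, adjusted p = 0.00352), with the runs apart at 9.97 to 10.41 and 10.44 to 10.59. A dimmer probe set of Slc39a6 gave -0.25 and did not pass. Of the 16 zinc carriers Slc39a6 was the only one called, a share near the 6.94% of all genes that rose, and 11 had a positive difference (5875 of all 12393 genes did).

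Slc15a3, a lysosomal carrier of peptides and histidine found in immune cells, read 4.66 to 5.33 in arrays of the lower run and 5.51 to 6.47 in those of the higher run. The higher run was thus above in all arrays, by 1.05 (SE 0.20, adjusted p = 0.00293), but the values of the lower run were under the bacterial control signal, so the size of the rise is uncertain. Markers of macrophages moved with Slc15a3 and Slc40a1. Of 8 markers 7 rose with the run, among them Lyz2, a lysozyme (2.12), Tyrobp, a signalling adaptor (1.22), and Csf1r, the receptor that macrophages depend on (1.07), and their mean, 6.14 to 6.60 in arrays of the lower run, was 7.28 to 7.68 in those of the higher run. Of 10 carriers listed for macrophages and erythroid cells, counted whatever their level, these 2 rose, where 6.94% of all genes did; nothing is read from a count of 2. Slc11a1, the metal carrier of macrophage phagosomes, differed by 0.28 (adjusted p = 0.304). Erythroid markers went the other way: 3 of 6 fell, all embryonic globin genes, where 4.2% of all genes fell. Their mean, 7.17 to 7.82 in arrays of the lower run, was 6.07 to 6.41 in those of the higher run. The part of these cells in the values of the carriers was not tested.

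Proximal tubule carriers rose in part. Slc47a1 encodes MATE1, which exports organic cations into the urine. It read 5.36, 5.89 and 5.45 in wildtype and 4.11, 5.05 and 5.60 in activated arrays of the lower run. Values in the higher run were 6.54, 7.06 and 6.66 in wildtype and 6.41, 5.86 and 6.00 in activated arrays. The runs differed by 1.18 (SE 0.23, adjusted p = 0.00359), with activated 5 just under wildtype 2, and part of the signal of the lower run lay under the bacterial control signal. Within the runs Slc47a1 differed with genotype by -0.65 and -0.66, past the test in neither.

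Of 22 carriers listed for the proximal tubule, counted whatever their level, 5 rose with the run and 13 had a positive difference. Of all 12393 genes 6.94% rose and 5875 had a positive difference. Beside Slc7a9 and Slc47a1 these were Slc34a1, the main renal phosphate carrier (1.01), Slc5a1, a glucose carrier (1.02), and Slc2a2, a glucose exporter of the basal membrane (0.75), whose mean signals, 5.09 to 5.23, lay under the level for members. Others did not pass: Slc5a2, the carrier of bulk glucose reabsorption, differed by -0.35 (adjusted p = 0.318), Slc4a4, the bicarbonate exporter, by -0.10, and Slc22a12 by 0.41 (adjusted p = 0.162). Over the 22 carriers the mean was 5.13 to 5.35 in wildtype arrays of the lower run and 5.65 to 5.74 in those of the higher run. In activated arrays it was 5.13 to 5.40 and 5.26 to 5.38. Within the higher run 17 of the 22 genotype differences were negative (6226 of all 12393 genes), and 0 passed limma's test. Markers of the proximal tubule that are not carriers moved in part. Of 8 such markers 3 rose, Lrp2 by 1.14, Ttc36 by 1.00 and Pdzk1 by 0.91. For wildtype arrays the mean over the 8 was 5.17 to 5.52 (lower run) and 6.01 to 6.10 (higher run). For activated arrays it was 4.84 to 5.51 (lower run) and 5.33 to 5.91 (higher run), with an overlap. Activated arrays of the higher run thus lay under its wildtype arrays. Mean signal was above 5.5 in 4 of the 8 markers, and several of these means lay under the bacterial control signal of 5.45, so their sizes are uncertain. Partner proteins and pumps went both ways. Of 7 auxiliary subunits of carriers 3 rose and 1 fell (4.2% of all genes fell). Their differences ran from -0.46 to 1.88, the highest that of Cltrn, which brings amino acid carriers to the cell surface. Of 14 pumps and aquaporins 4 rose, and 5 had a negative difference; the values ran from -0.62 to 2.13, the highest that of Fxyd2, a renal subunit of the sodium pump. Podocyte markers rose as well, in 3 of 4 genes. The part of tubule cells in the rise of Slc7a9 and Slc47a1 was not tested.

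Of 11 carriers listed for the distal nephron and collecting duct 0 passed limma's test of the run, with 3 higher at an unadjusted p under 0.05 (12.8% of all genes). Slc12a1 differed by 0.70 (SE 0.25, adjusted p = 0.0874) and Slc12a2 by 0.36 (SE 0.13, adjusted p = 0.0885). Slc12a1 passed without activated 5, and Slc12a2 without wildtype 5 and with its probe sets averaged. Among activated arrays alone Slc12a2 did pass, with 3 other carriers, Slc15a3, Slc40a1 and Slc7a3; among wildtype arrays alone Slc38a2, Slc47a1, Slc6a8 and Slc7a3 passed.

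The remaining carriers that rose serve metabolism in many cell types. Slc6a8, the creatine importer, read 7.57, 7.45 and 7.66 in wildtype and 8.03, 7.63 and 7.94 in activated arrays of the lower run, and 8.24, 8.15 and 8.75 against 8.02, 8.29 and 8.02 in the higher run. The rise was 0.53 (SE 0.15, adjusted p = 0.0303), and it was 0.82 in wildtype arrays (adjusted p = 0.0367) and 0.24 in activated arrays (adjusted p = 0.653). Slc19a2, a thiamine importer, rose from 7.84 ± 0.27 to 8.45 ± 0.20, by 0.60 (SE 0.14, adjusted p = 0.00911), with the arrays of the runs apart. Slc16a1, the carrier MCT1 that moves lactate and pyruvate with protons, rose from 9.52 ± 0.17 to 9.85 ± 0.09, by 0.34 (SE 0.09, adjusted p = 0.0233), with the lower run at 9.19 to 9.65 and the higher run at 9.75 to 9.99.

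The count of 13 fell to 8 without wildtype 6 and lay between 8 and 17 without single arrays. It was 4 with wildtype arrays alone and 4 with activated arrays alone, all higher, fits of 3 against 3 arrays that were added after the data were seen. These are 2.99% of members each, where 5.1% of all genes passed in wildtype arrays (3.32% higher) and 2.81% in activated arrays (2% higher). The calls in wildtype arrays include Slc47a1 and those in activated arrays Slc15a3. Both were members through their signal in the higher run and lend nothing to these shares.

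**Figure D5:**
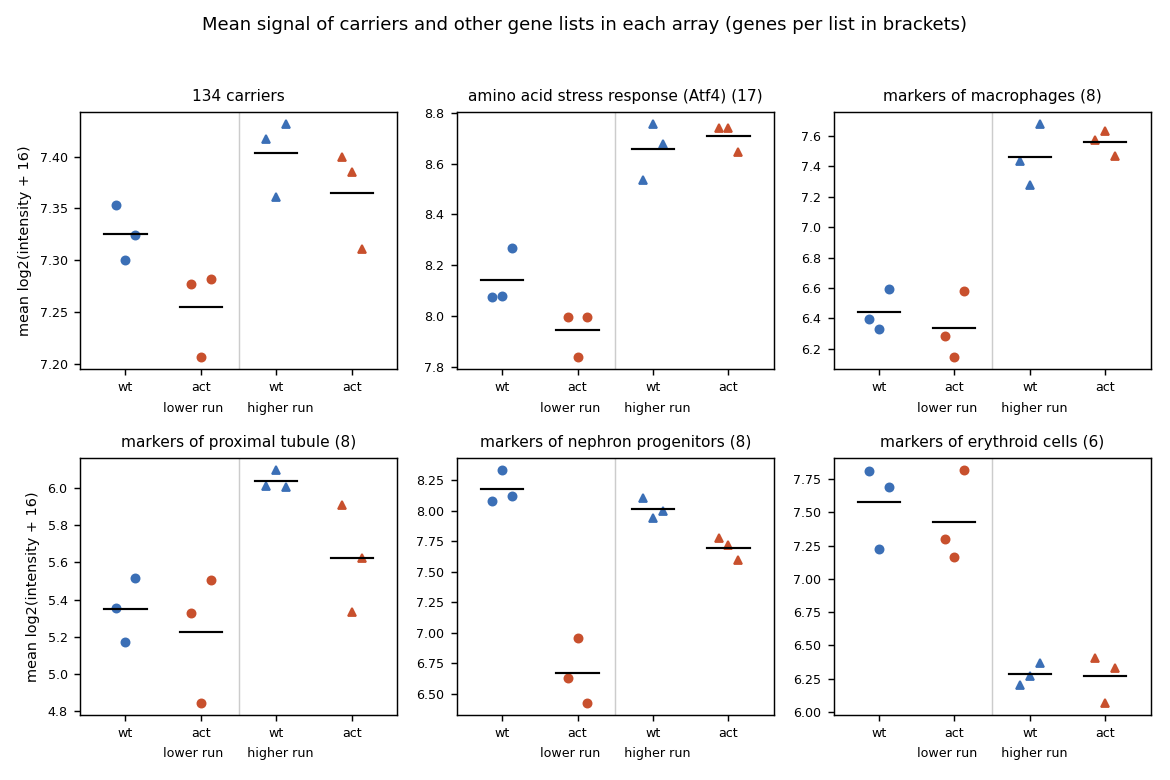
Mean log2 signal per array over the 134 carriers and over 5 other gene lists (number of genes in brackets), by genotype (wt, wildtype; act, activated) within the lower run (circles) and the higher run (triangles); bars are the means of 3 arrays, and the axes differ and do not start at 0. The carriers lie between 7.21 and 7.43 in every array, macrophage markers at 6.14 to 6.60 (lower run) and 7.28 to 7.68 (higher run), and nephron progenitor markers at 6.43 to 6.96 in the activated arrays of the lower run alone.

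Promoter windows were searched because several carriers moved together. RefSeq windows of 300 bases, 250 before and 50 after a start site on GRCm38.p6, were found for 102 of the 134 members (148 windows) and for 7 of the 13 that rose with the run. Searched on both strands, the sequence TGATGNAA, a composite element bound by Atf4, was in 4 of the 148 windows (2.70%) and in 3.97% of all 32851 windows. CACGTG, the E-box, was in 22 (14.9%) against 7.15% of all windows, and CTTTGAT, a form of the Tcf/Lef element through which beta-catenin acts, in 6 (4.05%) against 3.73%. In the windows of the 7 carriers that rose with the run, Atf4 elements were in 0 of 10, E-boxes in 1 and Tcf/Lef elements in 1. A match is only a description of letters.

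The windows below show the E-box of Slc16a1 and the Tcf/Lef form of Slc38a10, the matches among carriers that rose with the run, and the Atf4 form of Slc1a4, the carrier of the Atf4 list with a match. Each is 250 bases in the direction of the gene, with the match in capitals. They lie at chr3:104638414-104638663 (plus strand), chr11:120151352-120151601 (minus strand) and chr11:20332704-20332953 (minus strand). In Slc1a4 the match reads TTGCATCA, the reverse complement of the element, and spans the start site.
Slc16a1: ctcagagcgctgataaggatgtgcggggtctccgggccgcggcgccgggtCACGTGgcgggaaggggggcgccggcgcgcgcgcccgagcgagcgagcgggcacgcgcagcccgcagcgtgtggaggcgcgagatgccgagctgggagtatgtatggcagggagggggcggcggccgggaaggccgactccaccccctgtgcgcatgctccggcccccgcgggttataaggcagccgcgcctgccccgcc
Slc38a10: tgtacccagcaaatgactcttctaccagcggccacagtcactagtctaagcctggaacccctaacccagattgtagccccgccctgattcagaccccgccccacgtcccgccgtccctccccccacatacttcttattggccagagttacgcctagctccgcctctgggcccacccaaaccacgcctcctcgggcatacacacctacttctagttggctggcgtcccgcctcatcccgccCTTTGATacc
Slc1a4: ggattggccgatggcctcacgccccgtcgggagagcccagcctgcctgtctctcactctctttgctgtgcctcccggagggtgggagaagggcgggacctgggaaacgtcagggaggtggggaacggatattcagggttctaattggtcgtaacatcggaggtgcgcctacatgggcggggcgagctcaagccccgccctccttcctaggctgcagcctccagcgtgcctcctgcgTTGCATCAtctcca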

How the data were processed

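The deposited table holds intensities on a linear scale, 1 value for each of 22690 probe sets and 12 arrays. Per the labels' protocols, Trizol was used to extract RNA and an Affymetrix 3' kit to label it; software and version for the values are not given in the sources used here. After trimming 2% from each end, all arrays had a like mean, so the intensities were deposited already scaled. A platform table gave 1 gene symbol to 20380 probe sets and several to 691, which were left out. The RefSeq gene table of GRCm38.p6 held the identifiers of all 134 members. Of the members, 64 had several probe sets, and 239 probe sets in all.

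Intensities were taken as log2(intensity + 16), which understates the changes of dim genes, and quantile normalised. Genotype (all arrays, with the run as a term, within each run, and as a difference between runs) and run were tested with limma 3.58.1 in R 4.3.3, with variances that follow a trend, p-values adjusted over 12393 genes by Benjamini and Hochberg's method, and a threshold of 0.05 on them. Adjusted p-values in the text are limma's. "Rose" and "fell" mean past that threshold, and no p was adjusted over a list. The calculations were tested on simulated data. The number of arrays limits the precision.

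The members, substrate classes, gene lists, tests and naming rule were chosen with earlier results of these data known. The rule named up to 12 called members per comparison (the 6 largest each way where more passed), the 5 largest differences each way at an unadjusted p under 0.05, the 2 smallest p per class, the 8 brightest members, those beside the threshold, 3 genes per list, and the carriers left out by name. Slc6a9, Slc16a1, Slc31a1, Slc39a6 and Slc25a44, the carriers Slc3a2, Slc38a4, Slc7a5, Slc4a4, Slc5a1, Slc5a2, Slc2a2, Slc17a1 and Slc34a1, and Six2, Atf4, Asns, Nupr1, Lyz2, Tyrobp, Csf1r, Lrp2, Pdzk1 and Fxyd2 lie outside it and were chosen after their values were seen. Alternatives were the values without normalisation or centred on array medians, a pseudocount of 1, averaging a gene's probe sets, removal of the dimmest 40% of genes, no variance trend, a model of 4 groups, array weights and leaving out each array. Fits of the run within 1 genotype were added after seeing the data. Plots were drawn with matplotlib 3.10.9.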

Additional observations from a re-analysis of the deposited data

Results flagged for a closer look

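Among 98 sets of 6 arrays, 49 carriers in each genotype, 6 had an array far from the nearest of the others, and chance gives this in about 1 of 20 sets. Activated 5 was low in Slc12a5 (6.49) and Slc2a8 (4.55) and high in Slc27a4 (7.09), and activated 4 was high in Slc38a2 (11.61). Wildtype 1 was high in Slc1a4 (8.23), and wildtype 3 was low in Slc7a8 (5.10).

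In 3 carriers all activated arrays lay on one side of wildtype in the lower run and on the opposite side in the higher run, or 2.24% of the 134 members, where 0.581% of all genes did so. The difference between the runs was 0.85 for Slc1a4, 0.83 for Slc7a3 and -1.68 for Slc7a4, and none passed limma's test of that difference (adjusted p = 0.198, 0.438 and 0.0748). The dimmer probe sets of Slc1a4 and of Slc7a4 did not follow the brightest one.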

How the results depend on the processing

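No paired analysis was possible because the replicate numbers were given in accession order and pair no arrays. Of the alternatives, those that moved a count of called members by over 1.5 times were these. In the lower run the count of 1 became 0 with arrays centred on medians, with the mean of all probe sets and without the variance trend, and lay between 0 and 1 when single arrays were left out. For the difference between runs the count of 0 became 2 with array weights, namely Slc12a2 (adjusted p = 0.0248) and Slc7a4. For the run, the count of 13 lay between 8 (without wildtype 6) and 17 (without activated 2) when single arrays were left out, and was 4 with wildtype arrays only and 4 with activated arrays only. With the dimmest genes removed, 101 members were tested and 12 passed (11.9%, against 18.5% of all genes), 10 up and 2 down; the 2 were Slc12a5 and Slc38a4. The cause was not tested. Of 5257 recomputed differences of named members over the 6 comparisons, 4889 kept their direction and their side of the threshold, 74 lost a call, 14 gained one and 280, each without a call before or after, changed sign. The 14 lay in the difference between runs (Slc12a2 and Slc7a4) and in the run (Slc12a1, Slc12a2, Slc12a5, Slc25a3, Slc25a39, Slc30a4 and Slc66a1). Members near 5.45, the highest bacterial control signal, have uncertain fold changes, and 3 arrays per group limit what can be detected within a run.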
